A study of Mus musculus with 64 samples.

Results

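The genotype by training interaction in male mouse hearts asks whether high intensity interval training (HIIT) moved the expression of a gene by a different amount in transgenic (TG) than in non-transgenic (nTG) mice. It was computed for each gene as the training effect (HIIT minus sedentary) in TG males minus the training effect in nTG males, on the log2 scale. A positive term therefore means a higher response to training in TG than in nTG hearts. All samples labelled M were taken, 32 of the 64 hearts of the series, made up of 7 sedentary and 8 trained hearts of nTG males and 9 sedentary and 8 trained hearts of TG males. All mice are C57BL/6J, and the TG mice carry cTnT-delta160E, a cardiac troponin T variant used as a model of hypertrophic cardiomyopathy. Trained mice ran on a treadmill for 6 weeks with 3 sessions of 31 minutes per week, each with 4 intervals at 85% and 4 intervals at 50% of the mean speed of their group in a graded exercise test. Sedentary mice did not run. The age of the mice and the promoter of the transgene are not given in the sources used here. The labels call the samples of a group biological replicates, and the p-values measure the spread between these samples. Because the tissue is whole heart, fewer cells of a type and less RNA per cell of that type cannot be told apart.

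Troponin T anchors the troponin complex to tropomyosin on the thin filament of the sarcomere, and thin filament variants of hypertrophic cardiomyopathy are known to alter calcium sensitivity and to raise the energy cost of contraction. The adult heart makes most of its ATP in mitochondria, by oxidation of fatty acids through the tricarboxylic acid (TCA) cycle and the respiratory chain. Genes of this pathway are known to fall in hypertrophied hearts, while natriuretic peptides, fetal sarcomere genes and extracellular matrix genes rise. Secreted and membrane proteins are folded in the endoplasmic reticulum (ER), whose chaperones are induced by the unfolded protein response (UPR).

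The male libraries held between 35.4 and 67.1 megacounts (median 47.7) over 16913 genes. Gene columns taken by name contradicted the labelled sex or genotype in 24 of the 32 male libraries, so each library of the lncRNA table was given the gene column that correlated best with it over the transcripts that both tables share. All 64 pairs were mutual best matches, with r between 0.599 and 0.863 against at most 0.404 for the next column, and 0 libraries then contradicted their labels. Tnnt2, which encodes cardiac troponin T (chr1:135836354-135852260, plus strand, GRCm38), checked the labels. It ranged from 3155 to 3589 CPM (counts per megacount of the TMM-scaled library total, median 3201) in sedentary nTG and from 3064 to 3557 (median 3381) in trained nTG hearts. In TG hearts it ranged from 6538 to 9465 CPM (median 8249) at rest and from 6918 to 10300 (median 9154) after training, with no overlap between the genotypes. Its interaction term was 0.09 (SE 0.09) with an adjusted p of 0.689 (edgeR quasi-likelihood test, Benjamini-Hochberg adjustment over all genes, as for every adjusted p below unless another tool is named). The defining cardiomyocyte markers were present, with 10 of 10 in the table and a summed level between 58815 and 78467 CPM over all 32 libraries.

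With an adjusted p under 0.05 as the threshold, edgeR called 0 of 16913 genes (0%) for the interaction in males, and the smallest adjusted p was 0.131. At an unadjusted p under 0.05 there were 2503 genes (14.8%), of which 1409 had a positive term (8.33%) and 1094 a negative term (6.47%), where chance alone would give 846. DESeq2 called 1 gene, Ltc4s, and limma voom with quality weights called 300 genes, 181 with a positive and 119 with a negative term. The edgeR count became 1 when trained TG male 2 was left out, through the clone-named gene 4932702P03Rik, which was chosen for mention after its values were seen. The standard error of a term was 0.12 at the median gene. The 95% interval of the term lay within 0.5 of 0 on the log2 scale for 10221 genes (60.4%) and within 1 of 0 for 14588 genes (86.3%), so differences in response beyond these sizes lay outside the interval for those genes.

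The 2 training effects that form the interaction differed in their own counts. In TG males 3036 genes (18%) changed with training, 1750 upward (10.3%) and 1286 downward (7.6%). In nTG males edgeR called 0 genes (0%), with 999 at an unadjusted p under 0.05 (5.91%, with 2.94% positive and 2.97% negative) and a smallest adjusted p of 0.103, while DESeq2 called 4 and limma voom 1. These counts are not a test of the difference between the genotypes, which is the interaction itself. Of the 3036 genes called in TG males, 70.6% had the same direction in nTG males, against 59% of all genes. Without trained TG male 7 the count in TG males was 1702, and over all 32 libraries left out in turn it ranged from there to 4061, without trained TG male 4.

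**Figure D1:**
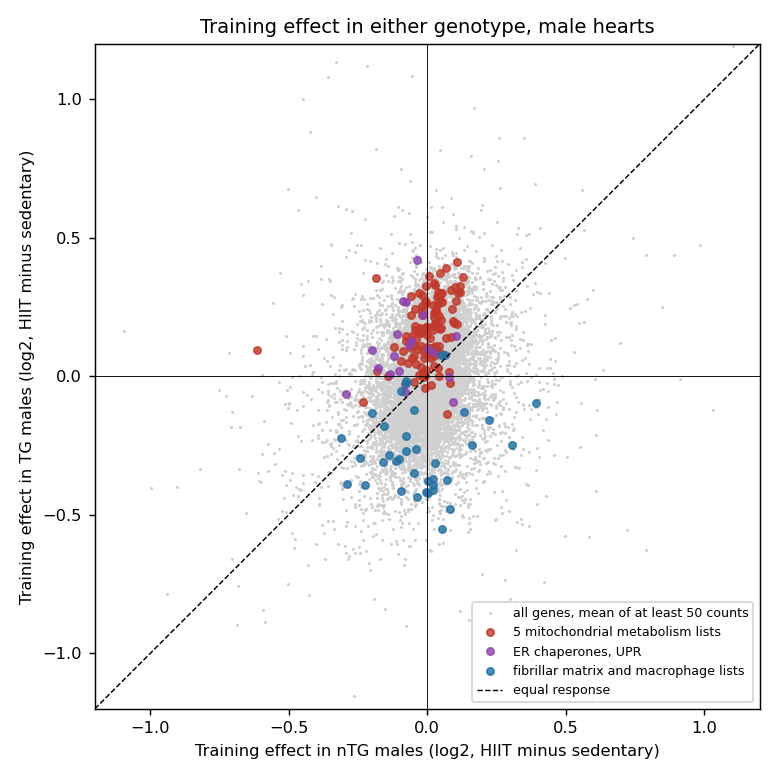
Training effect (log2, HIIT minus sedentary) of each gene in nTG males on the x axis and in TG males on the y axis, for genes with a mean of at least 50 counts. Grey points are all such genes, coloured points are gene lists, and the dashed line marks an equal response. The mitochondrial lists lie above 0 on the y axis with a median of 0.16 and near 0 on the x axis with a median of 0.00.

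The training effect in TG males followed the GC content of the genes, and so did the interaction. Across genes, Spearman's rho between GC percent and the log2 difference was -0.56 for training in TG males, -0.19 for training in nTG males and -0.42 for the interaction. From the quintile of genes with the lowest to that with the highest GC content, the median training effect in TG males went from 0.16 to -0.14, and the median interaction term from 0.12 to -0.11. The GC tilt of a library, its level of the top GC quintile minus that of the bottom quintile on the log2 scale, ranged from -0.41 to -0.05 (median -0.16) in trained TG hearts and from 0.06 to 0.23 (median 0.12) in sedentary TG hearts, so these groups did not overlap. In nTG hearts it ranged from -0.17 to 0.27 (median 0.05) at rest and from -0.19 to 0.16 (median -0.04) after training. What part the GC tilt has in the training effect was not tested. After an offset for GC content in each library, an alternative chosen after seeing this, 468 genes changed with training in TG males (2.77%), 316 upward (1.87%) and 152 downward (0.899%). With the offset edgeR called 0 genes for the interaction (0%), with 1672 at an unadjusted p under 0.05 (9.89%). With the tilt of each library as a covariate in the model, whose values did not overlap between the TG groups, 0 genes were called for training in TG males (1004 at an unadjusted p under 0.05) and 0 for the interaction (856 at an unadjusted p under 0.05). Values with this offset are given below beside the counts of gene groups.

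**Figure D2:**
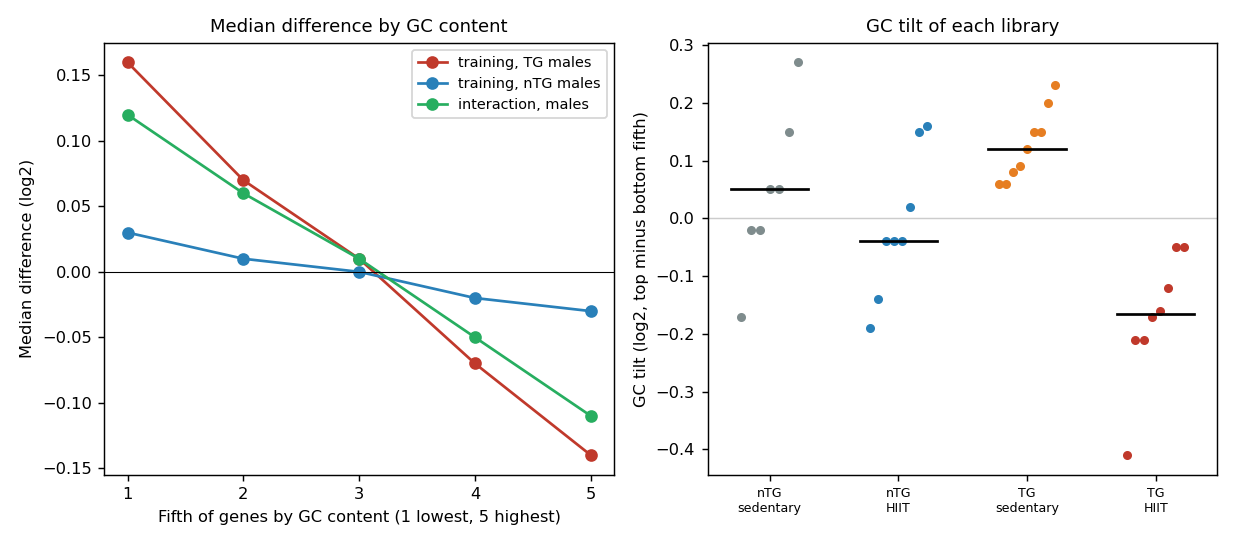
Left, median log2 difference of the genes in each quintile of GC content for training in TG males, training in nTG males and the interaction. Right, GC tilt (log2) of each of the 32 male libraries as points, with the group median as a bar. The 8 trained TG hearts lie between -0.41 and -0.05, below all 9 sedentary TG hearts.

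Chaperones of the endoplasmic reticulum had positive terms. The list of 20 ER chaperone and UPR genes had a median term of 0.18, against 0.00 over all genes. Of its members, 9 had a positive and 0 a negative term at an unadjusted p under 0.05, beside 8.33% of all genes with a positive term at that level. In TG males 5 members rose with training and 0 fell, beside 10.3% of all genes that rose, and in nTG males edgeR called 0 (1 at an unadjusted p under 0.05). The list's median training effect was 0.09 in TG and -0.08 in nTG males. Sedentary TG males had lower levels than sedentary nTG males in 11 members (11.2% of all genes were lower) and a higher level in 1 (9.39% of all genes were higher). Between the trained groups edgeR called 0 members (8.31% of all genes were lower and 5.65% higher), with 2 higher and 2 lower at an unadjusted p under 0.05. With the GC offset the median term was 0.16, with 7 positive terms at an unadjusted p under 0.05 (5.73% of all genes) and 1 member rising in TG males. Without trained TG male 7, whose Dnajb9 and GC tilt stood apart, 3 members rose in TG males.

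The promoters of this list are shown because ER chaperone genes are known targets of the ER stress response element, through which the UPR factors ATF6 and XBP1 act with NF-Y. The element was searched as CCAAT, then 9 bases of any kind, then CCACG, on both strands of the 250 bases before the start of each gene (RefSeq, GRCm38.p6). It occurred in 7 of the 17 list genes with a promoter in the table (41.2%), namely Calr, Canx, Creld2, Dnajc3, Hsp90b1, Hspa5 and Pdia6, and in 17 of 11466 tested genes with a promoter (0.148%). Dnajb9, which had the largest term of the list, held no match to these letters in its window. Terms of members with a match ran from 0.05 (Calr) to 0.36 (Hsp90b1), and without a match from -0.18 (Ddit3) to 0.45 (Dnajb9). The part of the element in the response to training was not tested. Capitals mark the matches in the 2 promoters below. The Hsp90b1 window is chr10:86705445-86705694 on the minus strand, with 1 match on each strand, and the Hspa5 window is chr2:34771840-34772089 on the plus strand.
Hsp90b1: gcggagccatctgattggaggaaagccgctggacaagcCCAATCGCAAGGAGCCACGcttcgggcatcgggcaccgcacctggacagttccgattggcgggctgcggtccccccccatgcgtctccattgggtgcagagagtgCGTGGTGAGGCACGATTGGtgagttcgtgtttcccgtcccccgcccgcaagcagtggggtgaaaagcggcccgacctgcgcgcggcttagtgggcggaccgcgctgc
Hspa5: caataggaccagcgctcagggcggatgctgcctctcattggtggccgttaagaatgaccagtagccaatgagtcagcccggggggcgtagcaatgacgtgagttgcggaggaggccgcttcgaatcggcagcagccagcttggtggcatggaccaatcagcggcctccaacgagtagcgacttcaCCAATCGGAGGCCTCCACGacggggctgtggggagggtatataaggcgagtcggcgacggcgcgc

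Dnajb9 encodes ERdj4, a cochaperone of BiP (chr12:44205559-44210326, minus strand). It ranged from 19.6 to 23.9 CPM (median 20.1) in sedentary nTG, from 17.4 to 24.5 (median 21.1) in trained nTG, from 13.2 to 17.9 (median 16.2) in sedentary TG and from 18.9 to 27.2 (median 20.5) in trained TG hearts. The trained TG hearts lay above all sedentary TG hearts, and the nTG groups overlapped. The term was 0.45 (SE 0.11, unadjusted p 0.000196, adjusted p 0.131), with a training effect of 0.42 in TG (adjusted p 0.0011) and -0.04 in nTG males.

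Hsp90b1 encodes GRP94, the HSP90 of the ER. It ranged from 155 to 194 CPM (median 186) in sedentary TG and from 183 to 265 (median 216) in trained TG hearts, and had medians of 213 at rest and 211 after training in nTG hearts. Its term was 0.36 (SE 0.11, unadjusted p 0.00176, adjusted p 0.159) and its training effect in TG males was 0.27 (adjusted p 0.0101). Hspa5, which encodes BiP, ranged from 224 to 290 CPM (median 259) in sedentary TG and from 250 to 343 (median 302) in trained TG hearts. In nTG hearts its medians were 337 and 344. The term of Hspa5 was 0.34 (SE 0.12, unadjusted p 0.0048), and both genes overlapped between the TG groups. The terms with the GC offset were 0.33 for Dnajb9, 0.25 for Hsp90b1 and 0.29 for Hspa5, and the TG training effects of Hsp90b1 (adjusted p 0.25) and Hspa5 (adjusted p 0.128) no longer passed. Without trained TG male 7 the training effect of Hspa5 was 0.24 (adjusted p 0.0503).

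The 5 lists of mitochondrial energy metabolism, 123 genes in all with no shared members, showed the same sign. These are fatty acid oxidation, pyruvate oxidation and the TCA cycle, respiratory complex I, complexes III to V, and breakdown of branched-chain amino acids (BCAA). Of the 123 genes, 116 had a positive term (50.7% of all genes did), 61 had one at an unadjusted p under 0.05 (8.33% of all genes), 0 had a negative one at that level and edgeR called 0. DESeq2 also called 0. Limma voom called 181 of all 16913 genes with a positive term. On these lists it called 3 genes of fatty acid oxidation, 6 of the TCA cycle and 2 of complex I. It also called 5 of complexes III to V and 2 of BCAA breakdown, and all these list genes had a positive term. The median term of the 123 genes was 0.18. In TG males 68 rose with training and 0 fell (10.3% and 7.6% of all genes), with a median change of 0.16, while in nTG males edgeR called 0 (1 at an unadjusted p under 0.05) and the median was 0.00. At rest 113 of the 123 were lower in TG than in nTG hearts (11.2% of all genes), and after training 50 were lower (8.31% of all genes). The genotype comparison at rest shares the sedentary TG hearts with the training comparison, so these values are given side by side only. The median GC content of the 123 genes was 49.1%, near the 49.4% of all genes.

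With the GC offset the median term of the 123 genes was 0.15, with 50 positive and 0 negative terms at an unadjusted p under 0.05 (5.73% and 4.16% of all genes), and 34 genes rose in TG males (1.87% of all genes). The calls in TG males depended on single libraries. Without trained TG male 4 the offset gave 1897 calls over all genes and 86 among the 123, and without sedentary TG male 5 it gave 101 and 4. Without the offset, the number of the 123 genes that rose in TG males ranged from 49 to 87 when 1 library was left out. The number with a positive term at an unadjusted p under 0.05 ranged from 39, without sedentary TG male 5, to 78, without trained TG male 4. Over all genes the training calls in TG males ran from 1702 to 4061 in these fits, and terms at that level from 1915 to 3137.

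**Figure D3:**
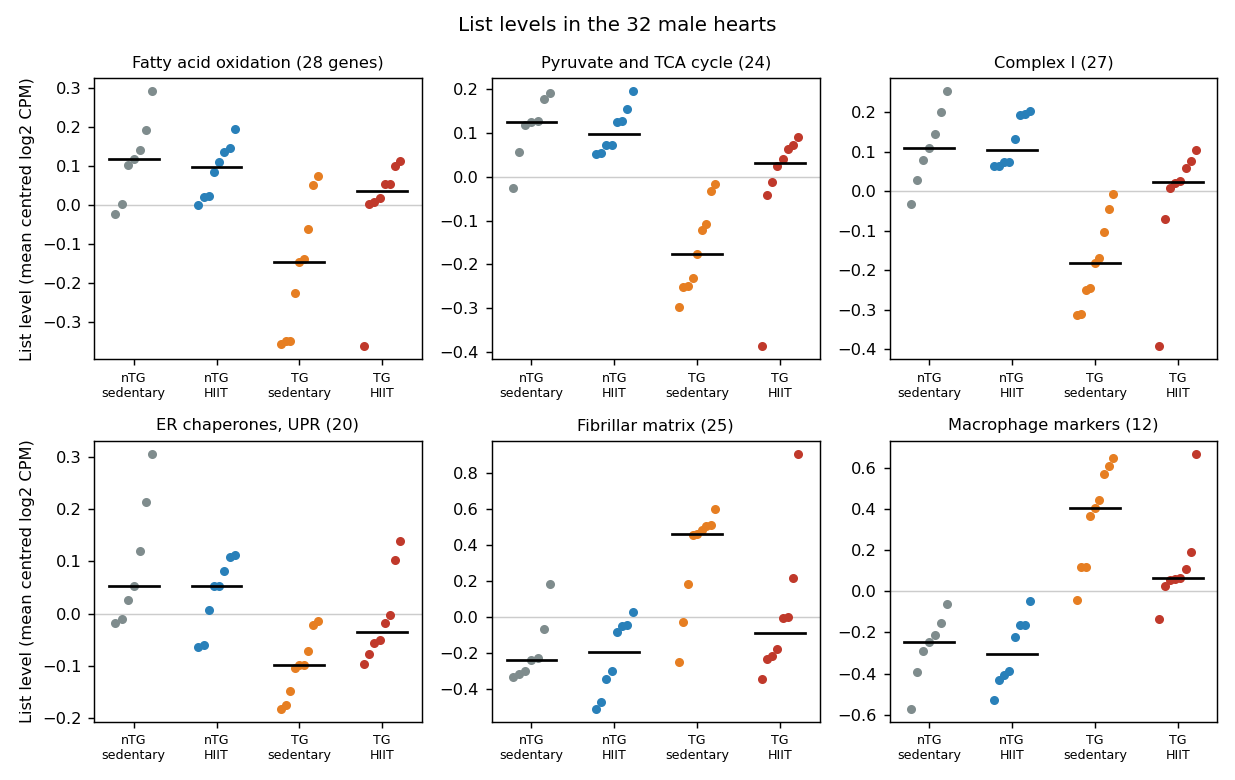
Level of 6 gene lists in each of the 32 male hearts (mean over members of log2 CPM, centred over the 32 libraries), with the group median as a bar. The metabolic lists are lowest in sedentary TG hearts by median, and 1 trained TG heart, male 4, lies at -0.36 in fatty acid oxidation and at 0.91 in fibrillar matrix.

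Fatty acid oxidation, 28 genes from uptake to beta-oxidation, had a median term of 0.19, with 12 positive and 0 negative terms at an unadjusted p under 0.05. In TG males 15 genes rose and 0 fell, and after the offset 7 rose and 11 had a positive term. The list level, the mean over members of log2 CPM centred over the 32 male libraries, ranged from -0.03 to 0.29 (median 0.12) in sedentary nTG, from 0.00 to 0.20 (median 0.10) in trained nTG, from -0.36 to 0.07 (median -0.15) in sedentary TG and from -0.36 to 0.11 (median 0.03) in trained TG hearts. The TG groups overlapped, and trained TG male 4 was the only trained TG heart below 0.00. Acadm, which encodes the medium-chain acyl-CoA dehydrogenase, ranged from 581 to 803 CPM (median 650) in sedentary TG and from 554 to 869 (median 836) in trained TG hearts, beside nTG medians of 925 and 935. Its term was 0.24 (SE 0.09, unadjusted p 0.0105, adjusted p 0.215), and its training effect was 0.26 in TG (adjusted p 0.0035) and 0.02 in nTG males. Acadl, the long-chain dehydrogenase, had a term of 0.22 (SE 0.09), and Hadhb, the beta subunit of the trifunctional protein, one of 0.25 (SE 0.10). Hadhb rose in TG males (0.24, adjusted p 0.0121), and with the GC offset its training effect was 0.06 (adjusted p 0.615).

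Of the 24 genes of pyruvate oxidation and the TCA cycle, 13 had a positive and 0 a negative term at an unadjusted p under 0.05, and 13 rose in TG males. Under the GC offset 11 had a positive term and 6 rose. All 24 were lower in TG than in nTG hearts at rest, and 8 were lower after training. Sdha encodes the flavoprotein of succinate dehydrogenase (chr13:74322254-74350280, minus strand). It ranged from 1052 to 1301 CPM (median 1162) in sedentary nTG, from 1058 to 1272 (median 1152) in trained nTG, from 833 to 1083 (median 909) in sedentary TG and from 777 to 1227 (median 1152) in trained TG hearts. The sedentary TG median stood below the other 3, and the ranges of the TG groups overlapped. Its term was 0.29 (SE 0.09, unadjusted p 0.00139, adjusted p 0.152) and 0.27 with the GC offset. With the offset and without trained TG male 4 the term was 0.33 and passed (adjusted p 0.049), 1 of 8 genes that did. Mdh1, the cytosolic malate dehydrogenase, had a term of 0.28 (SE 0.09) and Fh1, fumarase, one of 0.28 (SE 0.09), and both rose in TG males (0.26 with adjusted p 0.00276, and 0.22 with adjusted p 0.0102).

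Complex I, the NADH dehydrogenase, had 27 genes on its list, of which 13 had a positive and 0 a negative term at an unadjusted p under 0.05. In TG males 14 rose. After the offset 12 had a positive term and 8 rose. The number that rose was 7 without trained TG male 2, 7 without sedentary TG male 5, 8 without sedentary TG male 6, 8 without trained TG male 7, and 9 without sedentary TG male 4 or trained TG male 3. The positive terms numbered 8 without sedentary nTG male 2 and 7 without sedentary nTG male 6. Ndufs1, its largest core subunit, ranged from 352 to 447 CPM (median 412) in sedentary TG and from 369 to 543 (median 507) in trained TG hearts, and had nTG medians of 473 and 478. Its term was 0.31 (SE 0.09, unadjusted p 0.000887, adjusted p 0.142) and 0.25 with the GC offset. Ndufa5 had a term of 0.36 (SE 0.13) and Ndufv2 one of 0.31 (SE 0.11). Of the 24 genes of complexes III to V, 10 had a positive and 0 a negative term, and 14 rose in TG males, against 9 and 9 after the offset. Without sedentary nTG male 2 the positive terms numbered 6, and without trained TG male 1 or sedentary nTG male 7 there was 1 negative term. Among ATP synthase subunits, the term was 0.35 (SE 0.11) for Atp5j, 0.27 (SE 0.08) for Atp5h and 0.20 (SE 0.07) for Atp5a1, and all 3 rose in TG males.

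BCAA breakdown, 20 genes, had 13 positive and 0 negative terms at an unadjusted p under 0.05, and 12 rose in TG males. Under the GC offset 7 had a positive term and 4 rose. Without sedentary TG male 5 the positive terms numbered 5, without trained TG male 1 they numbered 7, and without trained TG male 2 or sedentary nTG male 2 or 4 they numbered 8. Mut, the methylmalonyl-CoA mutase at the end of this pathway, ranged from 58.5 to 79.5 CPM (median 70.7) in sedentary TG and from 64.7 to 122.7 (median 86.5) in trained TG hearts. Its nTG medians were 90.5 at rest and 87.8 after training, and the term was 0.33 (SE 0.10, unadjusted p 0.00176, adjusted p 0.159). Pcca, the alpha subunit of propionyl-CoA carboxylase, had a term of 0.28 (SE 0.10) and Acadsb, a short branched-chain acyl-CoA dehydrogenase, one of 0.25 (SE 0.09).

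Further mitochondrial lists cover the organelle's own genome, its ribosome and its regulators. Of 13 mitochondrially encoded genes, 0 had a positive and 2 a negative term at an unadjusted p under 0.05 (8.33% and 6.47% of all genes). In TG males 2 of the 13 rose and 0 fell (10.3% and 7.6% of all genes). Without trained TG male 4, 7 rose, and with the GC offset 1 rose. The median training effect was 0.16 in TG and 0.17 in nTG males, and the median term was -0.01. The offset turned the TG median to -0.05, with 0.12 in nTG males, a median term of -0.17 and 4 negative terms. Of 26 mitochondrial ribosomal protein genes, 2 had a positive and 1 a negative term (8.33% and 6.47% of all genes). Of 20 regulators of mitochondrial biogenesis and dynamics, 5 had a positive and 4 a negative term. Under the offset the ribosomal genes had 3 positive and 2 negative terms and the regulators 2 and 2 (5.73% and 4.16% of all genes). In TG males 7 of the 26 ribosomal genes rose and 0 fell, and 7 of the 20 regulators rose and 3 fell (10.3% and 7.6% of all genes). With the offset 2 rose and 0 fell on each of these lists. At rest 17 of the ribosomal genes and 9 of the regulators were lower in TG than in nTG hearts (11.2% of all genes), and 10 and 7 after training (8.31% of all genes). The ribosomal genes that rose numbered 3 without trained TG male 2 or sedentary TG male 5 or 6, and 4 without sedentary TG male 2 or trained TG male 3 or 7. With 1 library left out, the positive terms of the ribosomal genes numbered between 0, without sedentary nTG male 6, and 6, without trained TG male 4. The regulators had 3 positive and 1 negative terms without sedentary nTG male 6, and 2 negative terms without sedentary nTG male 5, trained nTG male 7 or trained TG male 7. Among these regulators the mitofusin Mfn1 had a term of 0.24 (SE 0.08), the fission GTPase Dnm1l one of 0.23 (SE 0.08) and the nuclear receptor Ppard one of -0.29 (SE 0.08). In TG males Mfn1 (0.26, adjusted p 0.0021) and Dnm1l (0.32, adjusted p 0.000769) rose, and Ppard (-0.21, adjusted p 0.00695) fell. With the GC offset Mfn1 and Dnm1l still passed, at 0.20 and 0.17, and Ppard did not (-0.15, adjusted p 0.0564). No site matching TNAAGGTCA, the response element of estrogen-related receptors, was found on either strand in the 98 promoters of the 5 metabolic lists, beside 99 of 11466 promoters of tested genes (0.863%). This says only that these letters were not in the 250-base windows.

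Contractile, calcium and ion channel genes were taken as further lists of the cardiomyocyte. Of 20 sarcomere genes, 1 had a positive and 1 a negative term at an unadjusted p under 0.05, with a median of 0.00, and after the offset 3 and 1 with a median of 0.05. With 1 library left out there were 1 to 4 positive terms, with 4 without trained TG male 4, and 1 to 2 negative terms. Ldb3, a Z-disc protein also known as cypher, had a term of -0.21 (SE 0.06). Nebl, nebulette, had a term of 0.25 (SE 0.09) and rose in TG males by 0.28 (adjusted p 0.00169). Of 20 calcium handling genes, 3 had a positive and 0 a negative term, and 7 rose in TG males (8.33%, 6.47% and 10.3% of all genes). Pln, phospholamban, the inhibitor of the calcium pump SERCA2, ranged from 1404 to 2051 CPM (median 1685) in sedentary TG and from 1643 to 2587 (median 2232) in trained TG hearts, beside nTG medians of 2107 and 2156. Its term was 0.31 (SE 0.11, unadjusted p 0.00933, adjusted p 0.213), and 0.17 with the GC offset. The count of calcium genes that rose in TG males was 4 without sedentary TG male 5 or trained TG male 7, and 1 with the GC offset, which left 2 positive terms. Among 20 ion channel genes, Kcnj3, which encodes the GIRK1 subunit of the acetylcholine-gated potassium channel, had a term of 0.41 (SE 0.11, unadjusted p 0.000488, adjusted p 0.131). Kcnj3 ranged from 46.4 to 71.3 CPM (median 55.6) in sedentary TG and from 70.1 to 87.3 (median 79.3) in trained TG hearts, beside nTG medians of 87.8 and 90.7. It rose in TG males with and without the GC offset (0.36 with adjusted p 0.0101, and 0.46 with adjusted p 0.000594).

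The hypertrophy, matrix and macrophage lists had median terms below 0, with edgeR calling 0 members of any of them and limma voom 1 in each, Hspb7, Loxl1 and Cd68. DESeq2 called 0. The 19 measured genes of the hypertrophy list, which holds natriuretic peptides, fetal actin and stress-responsive sarcomere proteins, had a median term of -0.19, with 4 negative and 0 positive terms at an unadjusted p under 0.05 (6.47% and 8.33% of all genes). In TG males 3 fell with training and 0 rose (7.6% and 10.3% of all genes). Acta1, skeletal alpha-actin, ranged from 201 to 951 CPM (median 494) in sedentary TG and from 135 to 689 (median 241) in trained TG hearts, beside nTG medians of 179 and 185. Its groups overlapped, and its term was -1.53 (SE 0.49, unadjusted p 0.00269, adjusted p 0.175). Hspb7, a small heat shock protein of the sarcomere, had a term of -0.41 (SE 0.13). Ankrd23, a stretch-responsive ankyrin repeat protein, had a term of -0.37 (SE 0.16). Leaving out trained TG male 4 raised the training calls in TG males over all genes from 3036 to 4061. It raised the terms at an unadjusted p under 0.05 from 2503 to 3137. In that setting 10 members of the list fell, 11 had a negative term and the median was -0.37. With the GC offset 0 fell and 4 had a negative term. The number that fell was 1 without sedentary TG male 2 or 4 or trained TG male 2, 3, 7 or 8, and 5 without sedentary TG male 7 or 8. The negative terms numbered 2 without trained nTG male 1 or 2 and 7 without sedentary TG male 7, and 1 member rose without sedentary TG male 1. With limma voom 8 members fell and 7 had a negative term, where 3386 of all genes had a term at an unadjusted p under 0.05.

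The fibrillar matrix list, 25 measured genes of collagens, their crosslinkers and matrix proteoglycans, had a median term of -0.22, with 3 negative and 0 positive terms at an unadjusted p under 0.05, beside 6.47% of all genes with a negative term at that level. In TG males 10 fell and 0 rose (7.6% and 10.3% of all genes), and in nTG males 0 changed. Its level ranged from -0.25 to 0.60 (median 0.46) in sedentary TG and from -0.34 to 0.91 (median -0.09) in trained TG hearts, beside nTG medians of -0.24 and -0.19. Trained TG male 4 was the highest of all 32 hearts at 0.91, and the TG groups overlapped. Without it 4061 of all genes were called for training in TG males, against 3036 with it. Terms at an unadjusted p under 0.05 numbered 3137, against 2503. In that setting 18 members of the list fell, 16 had a negative term and the median was -0.40. The number that fell was between 4 and 6 without trained TG male 1, 2, 3, 5, 7 or 8 or sedentary TG male 1, 2, 4, 5 or 6, and 0 with the GC offset. The negative terms numbered 1 without trained TG male 1 or sedentary TG male 5, and 5 without sedentary nTG male 1 or 5, sedentary TG male 3, 7 or 8 or trained nTG male 8. With limma voom 17 fell and 13 had a negative term, where 3386 of all genes had a term at an unadjusted p under 0.05. With the offset and without trained TG male 4, 19 fell and 12 had a negative term. The training calls in TG males over all genes were also more numerous there than with the offset alone. The 10 fibroblast markers had a level between -0.14 and 0.48 (median 0.38) in sedentary TG and between -0.21 and 0.72 (median 0.03) in trained TG hearts, where trained TG male 4 was again the highest. Of these markers 2 fell in TG males (7.6% of all genes), 1 with the GC offset and 6 without that heart. Their part in the change of the matrix list was not tested.

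Loxl1, a lysyl oxidase that crosslinks elastin and collagen, ranged from 77.5 to 134 CPM (median 118) in sedentary TG and from 62.1 to 133 (median 77.4) in trained TG hearts, with nTG medians of 72.5 and 76.2. Its term was -0.42 (SE 0.16, unadjusted p 0.0103, adjusted p 0.214), and it fell in TG males by 0.42 (adjusted p 0.0063). With the GC offset this training effect was -0.24 (adjusted p 0.121). Fn1, fibronectin, had a term of -0.41 (SE 0.19) and Bgn, biglycan, one of -0.45 (SE 0.20). The 12 macrophage markers had a median term of -0.29, with 5 negative and 0 positive terms at an unadjusted p under 0.05 (6.47% and 8.33% of all genes), and 5 fell in TG males (7.6% of all genes). Their summed level ranged from 259 to 427 CPM (median 357) in sedentary TG and from 245 to 419 (median 284) in trained TG hearts, beside nTG medians of 226 at rest and 228 after training. After the offset 2 macrophage markers had a negative term and 0 fell.

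**Figure D4:**
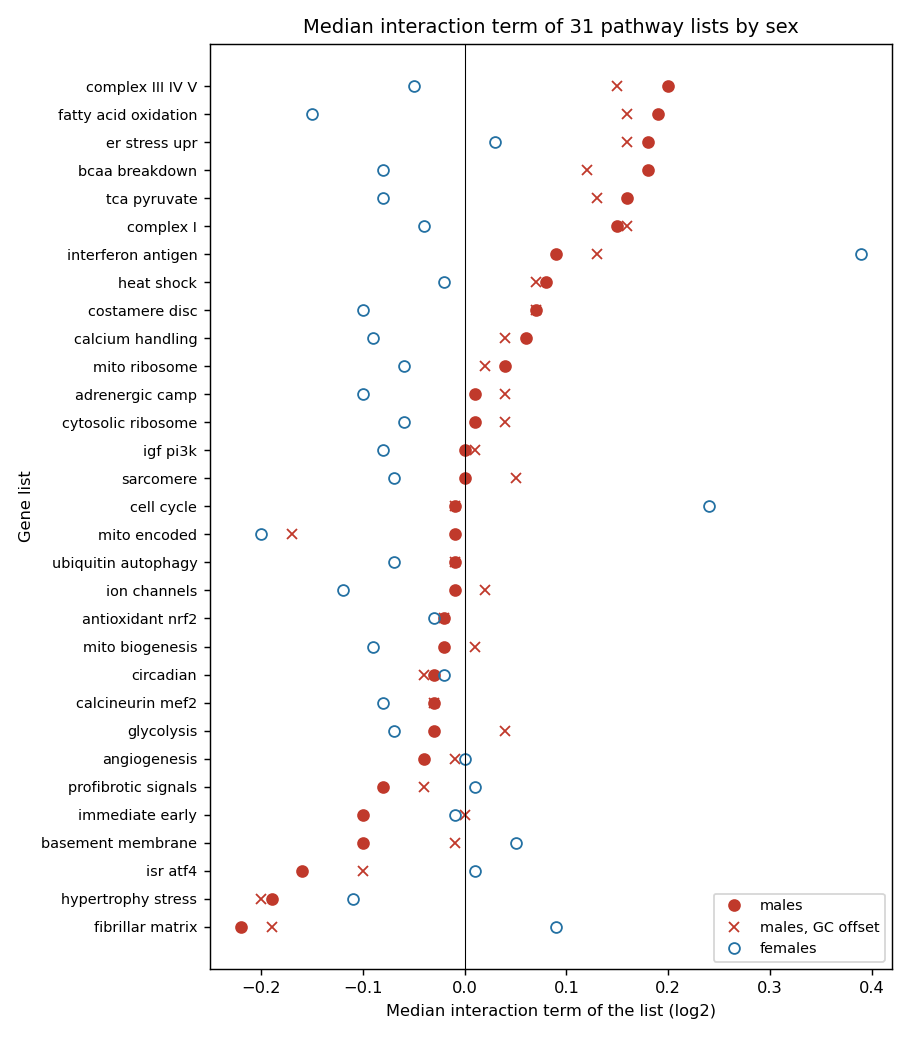
Median interaction term (log2) of each of 31 pathway lists in males (filled circles), in males with the GC offset (crosses) and in females (open circles). The metabolic lists lie between 0.15 and 0.20 in males and between -0.15 and -0.04 in females, and the fibrillar matrix list at -0.22 in males and 0.09 in females.

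Blood transcripts were highest in 1 library, and their median term was negative with and without it. Of 9 erythroid markers in the table, 8 had a negative term at an unadjusted p under 0.05 (6.47% of all genes), and 6 fell in TG males (7.6% of all genes). After the offset the counts were also 8 and 6. Their summed level ranged from 413 to 4786 CPM (median 682) in sedentary TG, where male 5 held the highest value, from 388 to 689 (median 505) in trained TG, from 570 to 1231 (median 727) in sedentary nTG and from 712 to 1244 (median 1071) in trained nTG hearts. The median term was -1.76 and, without sedentary TG male 5, -0.97, with 6 negative terms and 3 markers that fell. Adipocyte markers (5 of 10 in the table, with Adipoq, Lep and Retn not analysed here) also peaked in that library, at 56.3 CPM summed against at most 32.5 in any other male heart. Of 9 atrial markers 1 had a positive term (8.33% of all genes), with and without the offset, and trained TG male 4 held the highest summed level at 890 CPM, of which Nppa, also a member of the hypertrophy list, made up 472 CPM. Sedentary nTG male 5 had a summed level of 763 CPM and held the highest value of 7 of the 9 markers, all but Nppa and Myl1. Of 7 Schwann cell and neuronal markers in the table, 4 had a positive term (8.33% of all genes) and 2 rose in TG males (10.3%), but 0 rose by edgeR without trained TG male 7 or with the GC offset. Their summed level lay between 8.87 and 23.4 CPM over all libraries. The part of these cell types in the gene groups above was not tested.

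By the rule for naming single genes, the 12 with the smallest interaction p and a positive term and the 12 with a negative term are described, none of which passed the adjusted threshold by edgeR. All 24 had an adjusted p of 0.131 by that test. DESeq2 called Ltc4s among them, and limma voom called all of them except the 3 haemoglobin genes. The 12 positive genes had GC contents from 37.6% to 48.1% and the 12 negative genes from 51.3% to 61%. All 12 positive genes rose in TG males, by 0.17 to 0.52 on the log2 scale (10.3% of all genes rose). With the GC offset 8 of them rose (1.87% of all genes). Both training effects are part of the term by which the 24 genes were chosen, so their directions partly follow from that choice. Fzd3, a Wnt receptor, had the largest positive term of these at 0.70 (SE 0.17), and its training effect was 0.34 in TG (adjusted p 0.036) and -0.35 in nTG males (unadjusted p 0.00628). It ranged from 1.68 to 3.52 CPM (median 3.08) in sedentary TG and from 2.64 to 4.09 (median 3.56) in trained TG hearts, and from 3.26 to 5.61 (median 4.19) in sedentary and from 2.58 to 4.08 (median 3.51) in trained nTG hearts. The TG call of Fzd3 was lost without sedentary TG male 1, 2, 5 or 6 or trained TG male 1, 2, 3 or 8, with training effects from 0.26 to 0.33 and adjusted p-values from 0.0642 to 0.103.

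**Figure D5:**
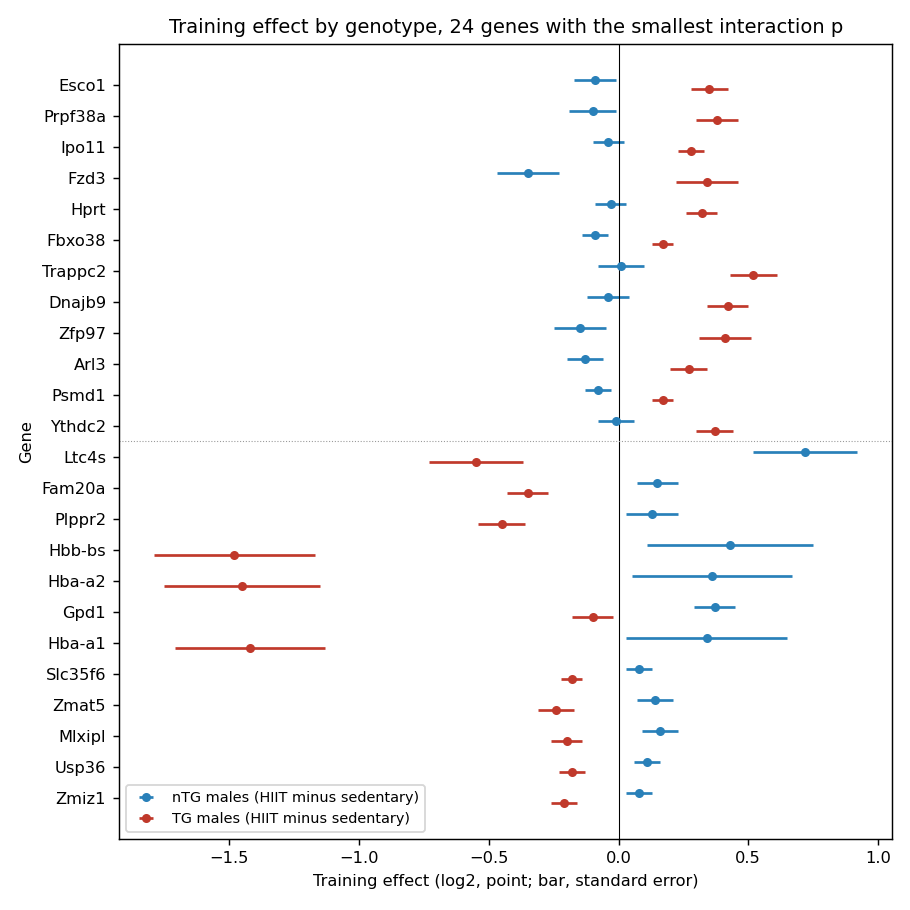
Training effect (log2, HIIT minus sedentary) in nTG and in TG males for the 24 named genes, with standard errors as bars. These are the 12 with the smallest interaction p in each direction, at a mean of at least 50 counts and without clone names. The 12 upper genes have positive terms and lie above 0 in TG males, and the 12 lower genes have negative terms.

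Esco1, an acetyltransferase of sister chromatid cohesion, had the smallest p among the 12 positive genes. It ranged from 9.88 to 13.2 CPM (median 11.2) in sedentary nTG, from 9.01 to 12.5 (median 10.8) in trained nTG, from 9.09 to 10.9 (median 9.96) in sedentary TG and from 10.7 to 15.4 (median 12.7) in trained TG hearts. The TG groups overlapped at their edges. Its term was 0.44 (SE 0.10, unadjusted p 6.38e-05) and its TG training effect 0.35 (adjusted p 0.00155). Ipo11, a nuclear import receptor, ranged from 14.6 to 17.2 CPM (median 15.4) in sedentary TG and from 17.9 to 22.03 (median 18.9) in trained TG hearts, which did not overlap, and its nTG medians were 18.9 and 18.2. Hprt, the purine salvage enzyme, ranged from 14.4 to 16.2 CPM (median 15.3) in sedentary TG and from 16.8 to 21.0 (median 19.2) in trained TG hearts, again without overlap. Trappc2, a subunit of the TRAPP complex of ER to Golgi transport, ranged from 3.53 to 4.84 CPM (median 4.17) in sedentary TG and from 4.89 to 7.23 (median 6.00) in trained TG hearts, also without overlap, with nTG medians of 4.83 and 4.59. The terms of these 3 genes were 0.32 (SE 0.08), 0.35 (SE 0.09) and 0.51 (SE 0.13). With the GC offset they were 0.24, 0.22 and 0.40, and all 3 rose in TG males under it. The separations of these 3 genes and of Dnajb9 are description only, as the share of all genes without overlap was not counted. The other positive genes were Prpf38a, a splicing factor (0.49), Fbxo38, a ubiquitin ligase subunit (0.26), the zinc finger gene Zfp97 (0.56), Arl3, a ciliary small GTPase (0.39), Psmd1, a proteasome subunit (0.24), Ythdc2, an RNA helicase that reads methylated adenosine (0.39), and Dnajb9.

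Ltc4s, leukotriene C4 synthase (chr11:50236461-50238616, minus strand), had the smallest p among negative terms. It ranged from 1.13 to 1.92 CPM (median 1.48) in sedentary nTG, from 1.69 to 4.71 (median 2.19) in trained nTG, from 2.19 to 4.51 (median 3.53) in sedentary TG and from 1.58 to 2.96 (median 2.39) in trained TG hearts. The medians moved in opposite directions with training, and the groups overlapped within each genotype. The term was -1.28 (SE 0.27, unadjusted p 1.59e-05, adjusted p 0.131 by edgeR and 0.0213 by DESeq2). The training effect was -0.55 (adjusted p 0.0287) in TG and 0.72 (unadjusted p 0.00066) in nTG males, and the term was -1.13 with the GC offset. The TG training effect no longer passed without sedentary TG male 2 or 5 or trained TG male 7 or 8, where it lay between -0.49 and -0.53 with adjusted p-values from 0.0517 to 0.0798.

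Of the 24 genes, 1 had nTG groups that did not overlap, while the share of all genes was not counted. The nTG training effect is part of the term that chose these genes. That gene was Gpd1, the cytosolic glycerol-3-phosphate dehydrogenase (chr15:99717515-99725005, plus strand). It ranged from 56.7 to 69.6 CPM (median 64.8) in sedentary nTG, from 71.7 to 105 (median 81.8) in trained nTG, from 60.01 to 86.0 (median 73.1) in sedentary TG and from 57.2 to 78.9 (median 66.3) in trained TG hearts. Its term was -0.47 (SE 0.11, unadjusted p 0.000106), with a training effect of 0.37 in nTG (unadjusted p 4.09e-05, adjusted p 0.173) and -0.10 in TG males (adjusted p 0.367). The haemoglobin genes Hbb-bs, Hba-a1 and Hba-a2 had terms of -1.91, -1.76 and -1.80, with their highest values in sedentary TG male 5, and of -1.09, -0.97 and -1.03 without that heart. Hba-a1 and Hba-a2 are near-identical copies, so the split of reads between them is uncertain. The other negative genes were Fam20a, a pseudokinase of the secretory pathway (-0.50), Plppr2, a phospholipid phosphatase-related protein (-0.58), Slc35f6 (-0.26), the zinc finger gene Zmat5 (-0.38), Mlxipl, the glucose-responsive factor ChREBP (-0.36), Usp36, a deubiquitinase (-0.29), and Zmiz1, a PIAS-like coregulator (-0.29). Each of these 7 fell in TG males (7.6% of all genes fell), which partly follows from their choice by a negative term. The call of Mlxipl was lost without trained TG male 3 or 7 (training effect -0.18 in either case, adjusted p 0.0529 and 0.0606).

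The same interaction in the 32 female hearts served as a comparison with independent samples. It called 0 genes (0%) by edgeR, DESeq2 or limma voom, with 1093 at an unadjusted p under 0.05 (6.46%, with 3.25% positive and 3.22% negative) and a smallest adjusted p of 0.575. The 123 metabolic genes had a median term of -0.08 in females, with 0 positive and 11 negative terms at an unadjusted p under 0.05. The fibrillar matrix list had medians of -0.22 in males and 0.09 in females, and the macrophage markers -0.29 and 0.24. The difference between the sexes was tested for each gene by the genotype by training by sex term, and 1 gene passed (0.00591%), with 10.2% of genes at an unadjusted p under 0.05, 6.24% with a higher and 3.91% with a lower term in males. It is 4932702P03Rik on chromosome 13, with a mean of 41.1 counts in the male libraries. Its term was -1.09 (SE 0.23) in males and 0.71 (SE 0.23) in females, with a difference of -1.80 (SE 0.32, adjusted p 0.0102). Training in TG females called 0 genes (0%) by edgeR and DESeq2 and 3 by limma voom, with 606 at an unadjusted p under 0.05 by edgeR (3.58%, with 1.9% positive and 1.69% negative). Training in nTG females called 25 genes by edgeR (0.148%), 95 by DESeq2 and 100 by limma voom, with 2406 at an unadjusted p under 0.05 by edgeR (14.2%, with 8.05% positive and 6.17% negative). Of the 3036 genes that changed in TG males, 51.6% had the same direction in TG females, against 50.2% of all genes.

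Lists of other functions are given beside the 8.33% of all genes with a positive and the 6.47% with a negative term. Of 21 heat shock genes, 4 had a positive and 4 a negative term at an unadjusted p under 0.05, and 3 and 4 after the offset. The small heat shock protein Hspb6 had a term of -0.37 (SE 0.11). Of 21 antioxidant genes 2 had a positive and 2 a negative term (4 and 1 after the offset, and 1 to 3 of each with 1 library left out), with 0.22 (SE 0.07) for the superoxide dismutase Sod1 and -0.36 (SE 0.14) for sulfiredoxin, Srxn1. Of 21 glycolysis genes 0 had a positive and 3 a negative term, and 1 and 1 after the offset, with 3 positive terms without trained TG male 4. Of 30 cytosolic ribosomal protein genes 3 had a positive and 1 a negative term, and 4 and 0 after the offset. Its positive terms numbered 0 without sedentary nTG male 4 or 6 or trained nTG male 7, and 1 without trained TG male 2. The 26 interferon and antigen presentation genes had 0 terms at that level by edgeR with all libraries, with and without the offset, and a median term of 0.09. These values depended on single libraries. The list had 5 positive terms without sedentary TG male 3 or sedentary nTG male 5, and 2 negative terms without trained TG male 4. Without that heart the list's median was -0.07 and 10 members fell in TG males, where 4061 of all genes were called. Without sedentary nTG male 7 the median was -0.13.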

How the data were processed

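Heart RNA was depleted of ribosomal RNA and sequenced, per the labels' protocols. Reads were processed with cutadapt 2.3, FastQC 0.11.8, MultiQC 1.7, STAR 2.7.8a and RSEM 1.3.3 on GRCm38 (mm10), per the submitters' processing notes. The authors deposited raw counts for 16913 genes and expected counts for 3787 lncRNA transcripts, with no normalization; the smallest row mean of the gene table was 10.48. The expected counts served only to find each library's gene column, by Pearson's r of centred log2 CPM. Names, positions and GC content came from GENCODE M21 (16887 identifiers matched), and promoters from RefSeq.

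Counts were tested with edgeR 4.0.16 (TMM, quasi-likelihood F test, 1 mean for each of the 8 groups), with Benjamini-Hochberg adjustment over all genes and a threshold of 0.05. DESeq2 1.42.0 and limma 3.58.1 voom were alternatives, in R 4.3.3. Scripts were tested on simulated data. CPM used TMM-scaled totals. The members, lists and rules were chosen with earlier results of these data known. Named were the 12 genes with the smallest interaction p in each direction (mean of at least 50 counts, no clone names) and up to 3 members of each list with the smallest p. 1 list member chosen this way is not reported here. Alternatives covered size factors, the low-count filter, mitochondrial genes, the 4 male groups alone, library number, replicate number, gene columns by name and each library left out. Those on GC content were added after seeing the data. No label gives an extraction or sequencing batch.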

Additional observations from a re-analysis of the deposited data

Results flagged for a closer look

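Values far from the rest of their group were looked for by Dixon's test in 40 measures (25 genes, 12 list levels and other library measures) of the 4 male groups, 160 checks in all. Chance raises about 1 in 20 such checks, and 20 values were raised. Trained TG male 4 lay apart in 8 list levels, at -0.36 for fatty acid oxidation, -0.39 for pyruvate and the TCA cycle, -0.39 for complex I, -0.40 for complexes III to V, -0.42 for BCAA breakdown, 0.91 for fibrillar matrix, 0.83 for hypertrophy and 0.67 for macrophage markers. Sedentary TG male 5 lay apart with 2049 CPM of Hbb-bs, 1275 of Hba-a2 and 1001 of Hba-a1, and with levels of 2.63 for blood and 3.02 for adipocyte markers. Trained TG male 7 had the lowest GC tilt at -0.41 and the highest Dnajb9 at 27.2 CPM.

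Single values also lay apart in nTG hearts. Sedentary male 6 had 20.2 CPM of Hprt and 54.1 of Slc35f6, sedentary male 4 had 3589 of Tnnt2, trained male 7 had 21.1 of Fbxo38 and trained male 1 had 105 of Gpd1. The interaction of 4932702P03Rik differed between the sexes, by -1.80 (edgeR, adjusted p 0.0102).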

How the results depend on the processing

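All 16913 genes passed the low-count filter, so leaving it out gave the same fit and no further test. The interaction count in males was 0 by edgeR under the other normalizations, filters and covariates tried. It was 1 with DESeq2, 300 with limma voom, 8 with the GC offset without trained TG male 4, and 0 to 1 with 1 library left out. Of these, the genes called for training in TG but not in nTG males numbered 1, 288, 6 and 0 to 1 in these settings. The TG training count (3036) was 468 with the GC offset, 374 with the offset and replicate block, 1897 with the offset without trained TG male 4, 101 with the offset without sedentary TG male 5, 0 with the GC covariate, 0 with columns by name, and 1702 to 4061 with 1 library left out. The nTG training count (0) was 4 with DESeq2, 1 with limma voom, 132 by name, 2 with the GC offset, 3 with the covariate, 4 with the offset and replicate block, 3 and 2 with the offset without those libraries, and 0 to 1 with 1 left out. The sex term count (1) was 0 by name. It was also 0 at a mean of at least 50 counts, a filter that removes 4932702P03Rik, with a mean of 41.1 counts in males. The cause of the other changes was not tested. Replicate numbers were not taken to pair the samples: over 45 same-numbered pairs r ran from -0.29 to 0.41 (median 0.06) with 16 above 0.1, beside 67 of 338 pairs with different numbers (median 0.00), and 5 of 32 libraries correlated best with their own number. With the replicate block the interaction count was 0 (smallest adjusted p 0.0627) and the TG training count 2700.

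Reversed signs came from columns by name, which the labels contradict, and from the GC covariate. By name the interaction terms were -0.03 for Esco1, -0.10 for Prpf38a, -0.08 for Hprt, -0.05 for Trappc2, -0.04 for Zfp97, -0.09 for Psmd1, 0.06 for Fam20a, 0.04 for Plppr2, 0.10 for Slc35f6, 0.24 for Mlxipl, 0.06 for Ldb3, 0.01 for Ppard and -1.06 for Tnnt2. By name the TG training effects were -0.06 for Ipo11, -0.02 for Dnajb9, -0.03 for Arl3, -0.01 for Psmd1, 0.10 for Fam20a, 0.04 for Plppr2, 0.03 for Mlxipl, -0.01 for Pln, -0.15 for Hrc, -0.02 for Kcnj3, -0.14 for Acadm, -0.11 for Hadhb, -0.02 for Acadl, -0.04 for Sdha, -0.06 for Mdh1, -0.02 for Fh1, -0.03 for Ndufs1, -0.08 for Ndufv2, -0.06 for Ndufa5, -0.05 for Atp5h, -0.02 for Atp5j, -0.08 for Atp5a1, -0.06 for Mfn1, -0.01 for Dnm1l, 0.00 for Mut, -0.15 for Pcca, -0.01 for Acadsb, 0.15 for Bgn, 0.18 for Fn1, -0.07 for Hspa5, -0.04 for Sod1 and 0.07 for Srxn1. With the GC covariate they were 0.00 for Ldb3, 0.03 for Hspb7 and -0.01 for Atp5j, and the interaction of Trdn was -0.01. At 35.4 to 67.1 megacounts a library and 7 to 9 libraries a group, the median standard error of a term was 0.12.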
